A study of Homo sapiens with 6 samples.

Results

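The glucocorticoid receptor, encoded by NR3C1, and 8 genes that it acts on or works with were followed in HCT116 cells. The members were chosen by symbol, as NR3C1, the target genes TSC22D3, FKBP5, SGK1, PER1, KLF9 and ZBTB16, and the coactivator genes NCOA1 and NCOA2. They are 9 of the 19871 gene symbols in the tables used here, and they hold 76 of the 92527 transcripts that carry a symbol. HCT116 is a colorectal cancer cell line, and its RNA was sequenced as strand-marked libraries in 3 groups of 2 libraries, 6 in all. Cells of the GAS5 group received a plasmid for the long noncoding RNA GAS5, and cells of the siYAP group received siRNA against YAP, a transcription coactivator of the Hippo pathway. The negative control group (NC) is listed under siRNA like the others, and whether its cells received an empty vector is not stated. The medium held serum, and no added hormone is named for any group. Each value used here is a group mean made by the authors, so the spread between libraries, and whether both libraries share a difference, cannot be read from it.

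The glucocorticoid receptor waits in the cytoplasm in a complex with heat shock proteins and immunophilins. When cortisol or a synthetic glucocorticoid binds, it enters the nucleus, binds paired DNA elements as a dimer, recruits coactivators such as the NCOA proteins, and turns on genes such as TSC22D3 and FKBP5. It also dampens inflammatory genes driven by NF-kappa B and AP-1. GAS5 RNA is known to fold into a shape that resembles the DNA element and to occupy the DNA-binding domain of the receptor, which makes it a decoy, and BIRC3 is a target described for that decoy action.

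The siRNA target was lower in its own group. YAP1 had 3480.0 mean counts for NC, 2679.0 for GAS5 and 1444.0 for siYAP, a log2 ratio of -1.18 for siYAP against NC. GAS5 itself is not an mRNA and was not analysed here. Mean counts on transcripts with a symbol summed to 27145310 for NC, 25471771 for GAS5 and 26243190 for siYAP. The 9 colon epithelial markers summed to between 3425 and 4508 FPKM (fragments scaled by transcript length and by library size, a level per length) in the 3 groups. Most of it was keratin RNA, with KRT8 at 1274, KRT19 at 977 and KRT18 at 835 FPKM in NC. CDX2 was at 3.52 FPKM in NC, and VIL1 and LGALS4 were at or under 6.0 mean counts throughout. The 5 leukocyte markers summed to between 4.27 and 5.98 FPKM, almost all of it CD68, with PTPRC at 0 in every group. The 4 fibroblast markers summed to between 2.20 and 3.34 FPKM, almost all of it COL1A1, with DCN and LUM at 0 in every group. The 3 endothelial markers summed to at most 0.225 FPKM and the 3 hepatocyte markers to at most 0.820 FPKM, with TTR at 0 in every group. In the bulk RNA, fewer cells of a kind and less RNA per cell cannot be told apart. An interferon-stimulated list was chosen with earlier results of these data known. All 7 of its genes were higher in GAS5 than in NC by more than 2-fold, beside 3.09% of all genes past 2-fold in either direction. The list had a median log2 ratio of 3.36 and a summed level of 832 FPKM against 99.9 FPKM. In siYAP the median of that list was 0.14, at 119 FPKM. Of the markers outside the colon list, ALB in GAS5, from 1.5 to 16.0 mean counts, had the largest log2 ratio past the filter, 2.47. COL1A1 was at 0.67 in GAS5 and 0.60 in siYAP, CD68 at 0.58 and 0.09, and VWF at -0.05 and 0.65. The part of these lists in the results below was not tested.

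Levels were set side by side in FPKM, summed over the transcripts of a gene. PER1, a repressor in the circadian clock, was the most abundant member, at 46.6 FPKM for NC, 38.3 for GAS5 and 42.6 for siYAP. That rank rests on 1 short partial transcript, ENST00000584202, named after its values were seen. Without it PER1 was at 25.9, 24.0 and 25.5 FPKM, below FKBP5 in every group. FKBP5, an immunophilin that holds the receptor in a state of low affinity for hormone, followed at 35.4, 31.2 and 28.7 FPKM. TSC22D3, which encodes the leucine zipper protein GILZ, came next at 19.1, 11.2 and 17.8 FPKM. These are 3 targets of the receptor, and each lay above at least 61.7% of the genes listed above 0.

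The coactivator genes and the receptor gene were lower in level. NCOA2 was at 9.31 FPKM for NC, 8.27 for GAS5 and 7.53 for siYAP, and NCOA1 at 5.82, 5.13 and 4.76. NR3C1 was at 5.12, 4.74 and 3.95 FPKM, above 43.0% of the genes listed above 0 in NC. KLF9 and SGK1 were the lowest of the members with appreciable reads. KLF9, a zinc finger transcription factor, was at 2.60 FPKM for NC, 1.47 for GAS5 and 1.55 for siYAP. SGK1, a kinase that promotes sodium uptake in epithelia, was at 1.60, 2.64 and 1.99 FPKM. SGK1 ranked 8 among the members in NC and 7 in the other groups, where it exchanged places with KLF9. Without a spread between libraries it cannot be said which neighbours in this order differ.

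**Figure D1:**
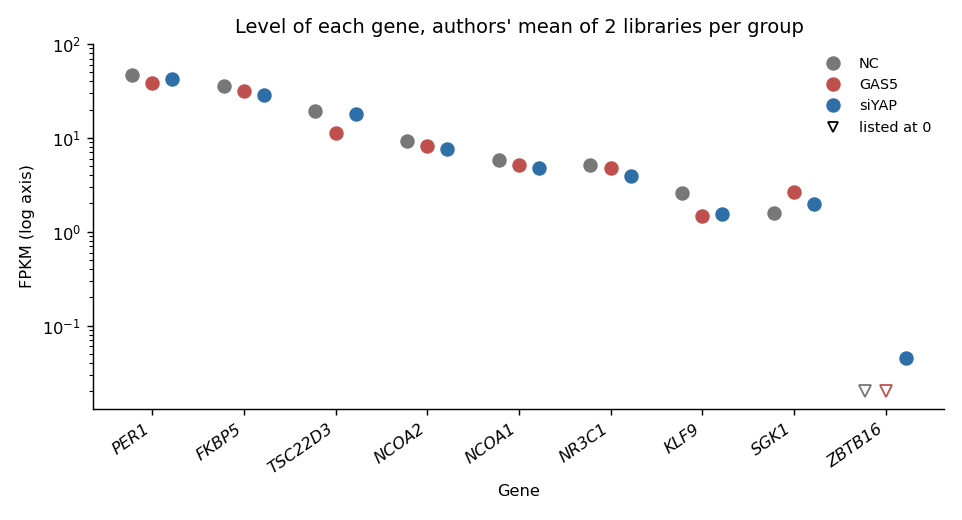
Level of each member in FPKM on a log axis, with 1 point for the authors' mean of each group and open triangles for genes listed at 0. PER1 (46.6 FPKM in NC) and FKBP5 (35.4) lead in every group, with PER1 at 25.9 when 1 short partial transcript is left out, and SGK1 is the 1 expressed member that is highest in GAS5 and lowest in NC.

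ZBTB16, a zinc finger repressor that glucocorticoids induce strongly in several tissues, had 0.0 mean counts in NC and GAS5 and 1.5 in siYAP. A count of 0 allows up to 3 counts over the libraries of a group, or 0.0553 CPM (counts scaled by library size) in NC and 0.0589 CPM in GAS5. No difference in ZBTB16 was detectable at this depth, and it is the 1 member that did not pass the low-count filter.

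For the comparisons, mean counts were summed by gene and scaled to NC by the TMM method, and the log2 ratio to NC was taken after adding 2 counts to each mean. Each ratio is given with a 95% Wilson interval that takes the deposited mean as the count. Reads are not independent molecules and the libraries are not seen, so these intervals cover counting error only. No test can be run on 1 mean per group.

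In GAS5 against NC, 7 of the 8 members that passed the filter were below 0 and 1 was above, with a median log2 ratio of -0.16 beside 0.00 over 13379 genes. This split depends on transcripts assembled from the reads, which carry no Ensembl identifier. With Ensembl transcripts only, 4 members were above 0 and 4 below, with a median of -0.06. In that comparison 0 members reached a 2-fold difference, where 3.09% of all genes did. At a log2 ratio of 0.5 or more in size, 2 members were lower, KLF9 and TSC22D3, beside 5.31% of all genes. SGK1 was higher by that size, beside 6.32% of all genes.

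In siYAP against NC, 7 of the 8 members were below 0, with a median of -0.20 beside -0.00 over 13308 genes. Among the 7 were PER1 at -0.00 and TSC22D3 at -0.05, whose intervals include 0. With Ensembl transcripts only, 4 members were above 0 and 4 below here too, with a median of -0.00. Here too 0 members reached a 2-fold difference, beside 2.28% of all genes. KLF9 was lower by at least 0.5, as were 7.91% of all genes, and 0 members were higher by that size, beside 6.82% of all genes. Both comparisons divide by the same NC means and are not independent of each other.

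**Figure D2:**
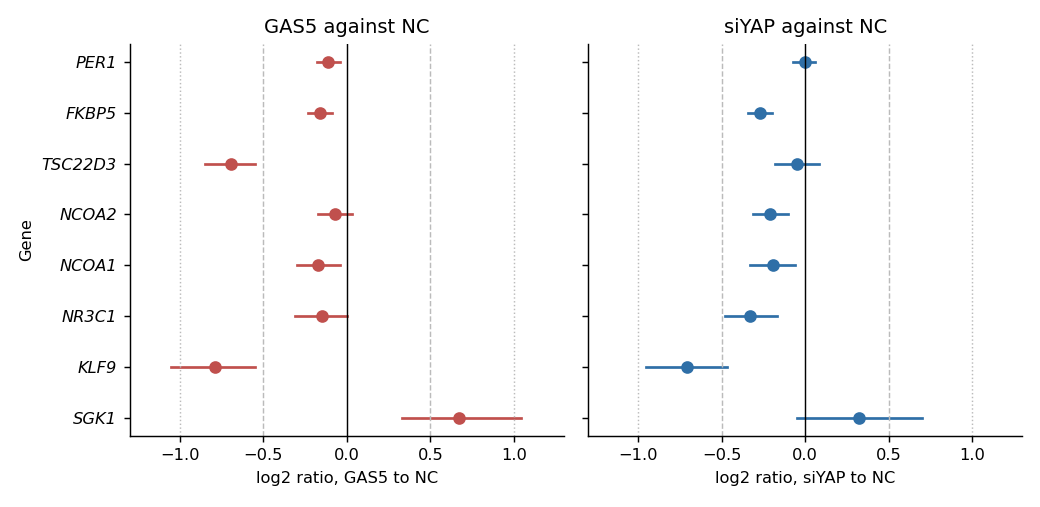
Log2 ratio to NC of the 8 members that passed the filter, in GAS5 (left) and siYAP (right), with bars for the 95% counting interval; dashed lines mark 0.5 and dotted lines 1. KLF9 lies beyond -0.5 in both panels, while TSC22D3 does so in GAS5 (-0.69) and sits at -0.05 in siYAP.

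TSC22D3 was lower in GAS5 than in the other groups. It had 997.5 mean counts for NC, 567.0 for GAS5 and 909.0 for siYAP, or 615.4 and 964.5 after scaling to NC. The log2 ratio was -0.69 in GAS5 (interval -0.85 to -0.55), a level 38.3% below NC, and 6.14% of all genes lay at least as far from 0. In siYAP it was -0.05 (interval -0.18 to 0.08). The log2 ratio of GAS5 to siYAP was -0.66, and this difference was not tested.

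The lower count ran through the main coding forms of TSC22D3. The gene has 18 transcripts in the tables, of which 5 were at 0 in every group and 1 was assembled from the reads. The most abundant, ENST00000372397, codes for the 134-residue form that is usually called GILZ, and had 823.6 mean counts for NC, 466.1 for GAS5 and 736.7 for siYAP. Its log2 ratio was -0.70 in GAS5 and -0.08 in siYAP. The next, ENST00000372383, codes for a 200-residue form and had 101.8, 36.4 and 111.0 mean counts. It was the 1 TSC22D3 transcript with at least 50 mean counts past 2-fold, at -1.32 in GAS5 and 0.21 in siYAP. A 77-residue form, named after its values were seen, went the other way with 2.9 mean counts for NC, 19.2 for GAS5 and 6.0 for siYAP.

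TSC22D3 lies on the minus strand of chromosome X, from 107713221 to 107777342 on GRCh38 (GENCODE 29). Promoter windows of 300 bases, from 250 before to 50 after a start site, were taken from RefSeq on GRCh38.p14 for the 7 members that have one, 21 windows in all. They were searched on both strands for the glucocorticoid response element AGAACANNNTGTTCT, for its core ACANNNTGT, for 1 arm of it, AGAACA, and for the E-box CACGTG that clock factors bind. The core and the arm lie within the full element and share letters. The full element was in 1 of 35116 windows and in no member's window. The core was in 5.37% of all windows and, among members, in TSC22D3, in overlapping windows that hold the same match. The window at the start of ENST00000372383 (chrX:107775738-107776037, minus strand) is shown because it holds that match, in capitals, 208 bases before the start.
TSC22D3: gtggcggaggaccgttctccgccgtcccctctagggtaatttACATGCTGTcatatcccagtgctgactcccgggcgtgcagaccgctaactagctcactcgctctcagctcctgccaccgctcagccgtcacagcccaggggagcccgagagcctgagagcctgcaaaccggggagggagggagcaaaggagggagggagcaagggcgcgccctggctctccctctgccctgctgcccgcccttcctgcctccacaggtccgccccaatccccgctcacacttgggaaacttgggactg

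A match of letters is a description and not a binding site, and known response elements of these genes lie partly outside such windows. The window shown belongs to the 200-residue form, the minor part of TSC22D3, with 14.8% of its counts in NC and 9.24% in GAS5.

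KLF9 was lower than NC in both treatments. Its 1 listed transcript, ENST00000377126, codes for 244 residues and had 373.0 mean counts for NC, 197.5 for GAS5 and 214.5 for siYAP. The log2 ratio was -0.79 in GAS5 (interval -1.05 to -0.55) and -0.71 in siYAP (interval -0.95 to -0.47). Of all genes, 4.76% lay at least as far from 0 in GAS5 and 6.21% in siYAP. With 1 transcript, the KLF9 value does not depend on how reads were split among transcripts of the gene. GAS5 and siYAP differed from each other by a log2 ratio of -0.10.

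KLF9 lies on the minus strand of chromosome 9, from 70384597 to 70414624. Its window (chr9:70414608-70414907, minus strand) is shown because KLF9 had the largest difference among members, and none of the searched letters was found in it. Its GC content was 32.7%, beside a median of 58.7% over all windows.
KLF9: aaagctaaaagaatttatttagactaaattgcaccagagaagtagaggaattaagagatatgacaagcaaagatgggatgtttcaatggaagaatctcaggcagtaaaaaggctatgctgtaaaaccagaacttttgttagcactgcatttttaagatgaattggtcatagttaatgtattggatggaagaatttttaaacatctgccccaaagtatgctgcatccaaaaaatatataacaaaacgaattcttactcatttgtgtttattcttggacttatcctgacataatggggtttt

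SGK1 was the 1 member above NC in both comparisons. It had 104.0 mean counts for NC, 154.0 for GAS5 and 123.0 for siYAP. The log2 ratio was 0.67 in GAS5 (interval 0.33 to 1.04), where 6.47% of all genes lay at least as far from 0. In siYAP it was 0.32, with an interval from -0.05 to 0.70 that includes 0.

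The added SGK1 counts in GAS5 were unevenly spread over transcripts. The most abundant, ENST00000237305, codes for the 431-residue form and had 74.9 mean counts for NC, 80.8 for GAS5 and 97.6 for siYAP, a log2 ratio of 0.22 in GAS5. ENST00000367857, which codes for 421 residues, had 4.4, 41.7 and 9.6 mean counts. It made up 4.18% of the SGK1 counts in NC and 27.1% in GAS5. Both start within 50 bases of the same RefSeq start site. With the 431-residue transcript alone, SGK1 would not be past 0.5 in GAS5.

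FKBP5 was slightly lower than NC in both sums. It had 3713.0 mean counts for NC, 3063.5 for GAS5 and 2911.5 for siYAP. The log2 ratio was -0.16 in GAS5 (interval -0.23 to -0.09) and -0.27 in siYAP (interval -0.34 to -0.20). These differences lay mostly in the estimate for 1 assembled transcript and not in that of the main annotated coding transcript. Counts of overlapping transcripts are estimates with no known spread between libraries, and whether the assembled one codes for protein is not given. TCONS_00123894, a transcript assembled from the reads with no Ensembl identifier, had 1781.1 mean counts for NC, 1232.1 for GAS5 and 854.7 for siYAP. ENST00000357266, the main coding transcript of 457 residues, had 1767.1, 1734.1 and 1987.9, a log2 ratio of 0.09 in GAS5 and 0.26 in siYAP. Over all FKBP5 transcripts with an Ensembl identifier the ratios were 0.04 and 0.18, so the direction of the gene sum turns when assembled transcripts are left out. ENST00000542713, a short form of 268 residues, had 122.5, 62.3 and 54.6 mean counts and was past 2-fold in siYAP, at -1.05.

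FKBP5 lies on the minus strand of chromosome 6, from 35573585 to 35728583. Its window at the start of ENST00000357266 (chr6:35688866-35689165, minus strand) is shown because it holds an E-box, in capitals, 227 bases before the start. The E-box was in 7.26% of all windows and in those of FKBP5 and PER1 among the members. The single arm AGAACA was in 14.8% of all windows and, among members, in windows of FKBP5, NCOA1 and SGK1.
FKBP5: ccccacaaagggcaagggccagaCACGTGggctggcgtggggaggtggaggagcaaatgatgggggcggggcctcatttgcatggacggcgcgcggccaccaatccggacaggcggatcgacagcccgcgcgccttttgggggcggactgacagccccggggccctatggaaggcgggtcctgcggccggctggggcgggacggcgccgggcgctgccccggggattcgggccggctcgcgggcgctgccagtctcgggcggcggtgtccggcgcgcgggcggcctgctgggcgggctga

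PER1 was close to NC in its sum. It had 3649.5 mean counts for NC, 3118.5 for GAS5 and 3433.0 for siYAP, a log2 ratio of -0.11 in GAS5 (interval -0.18 to -0.04) and -0.00 in siYAP (interval -0.07 to 0.06). From FPKM the ratios were -0.28 and -0.13. The assembled transcript TCONS_00060943 held 51.1% of the PER1 counts in NC and had 1864.8 mean counts for NC, 1938.9 for GAS5 and 2053.8 for siYAP. ENST00000317276, the full coding transcript of 1290 residues, had 1391.9, 919.0 and 1053.1. Its log2 ratios were -0.48 and -0.32, so this transcript was lower than NC while the assembled one was higher, at 0.17 and 0.22. Whether the assembled one codes for protein is not given, and the split of counts between them is an estimate. The short partial transcript ENST00000584202 gave 20.7 of the 46.6 FPKM of PER1 in NC.

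PER1 lies on the minus strand of chromosome 17, from 8140472 to 8156506. The window at the start of its coding transcript (chr17:8152355-8152654, minus strand) is shown for its E-box, in capitals, 173 bases before the start.
PER1: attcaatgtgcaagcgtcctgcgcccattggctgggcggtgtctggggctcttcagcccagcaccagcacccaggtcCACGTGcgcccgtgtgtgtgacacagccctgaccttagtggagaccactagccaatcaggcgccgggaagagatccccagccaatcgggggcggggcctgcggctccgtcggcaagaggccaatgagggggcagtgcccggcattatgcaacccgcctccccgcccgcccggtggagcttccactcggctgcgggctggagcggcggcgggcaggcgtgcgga

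NR3C1, the receptor gene, was a little lower than NC in both sums. It had 759.0 mean counts for NC, 629.0 for GAS5 and 570.0 for siYAP. The log2 ratio was -0.15 in GAS5 (interval -0.31 to -0.00) and -0.33 in siYAP (interval -0.48 to -0.17). Of all genes, 55.9% lay at least as far from 0 in GAS5 and 32.0% in siYAP. In GAS5 the receptor gene lay near the middle of the distribution of all genes.

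In the transcript estimates, the lower NR3C1 sums lay in 1 assembled transcript. The split of counts among overlapping transcripts is an estimate, so the lower sums cannot be placed in that transcript with certainty. TCONS_00118264 had 260.9 mean counts for NC, 40.1 for GAS5 and 81.8 for siYAP, a log2 ratio of -2.53 in GAS5 and -1.57 in siYAP. It held 34.4% of the NR3C1 counts for NC, 6.38% for GAS5 and 14.4% for siYAP. ENST00000394464, the most abundant transcript, codes for the hormone-binding alpha receptor of 777 residues and had 357.3, 424.0 and 375.4 mean counts. All alpha transcripts together had 436.7, 486.6 and 441.3 mean counts, a log2 ratio of 0.27 in GAS5 and 0.10 in siYAP. Over all NR3C1 transcripts with an Ensembl identifier the ratios were 0.36 and 0.06, so the direction of the gene sum turns here as well.

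The receptor gene codes for several proteins, and the forms were named after their values were seen. The beta form of 742 residues has another carboxyl end and does not bind hormone. Its transcript, ENST00000415690, was at 0.0 mean counts for NC, 2.9 for GAS5 and 29.1 for siYAP, at most 5.11% of the gene's counts. The gamma form of 778 residues, which has 1 residue added in the DNA-binding domain, had 61.4 mean counts for NC, 67.4 for GAS5 and 11.1 for siYAP. ENST00000424646, of 751 residues, was at 0.0 for NC, 30.2 for GAS5 and 6.6 for siYAP. The forms overlap over most of their coding sequence, and no spread between libraries is known for such low estimates.

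The places where the coding sequences of beta and gamma part from that of alpha are shown. Only coding bases were compared, so bases in capitals may also lie in untranslated parts of another form. NR3C1 lies on the minus strand of chromosome 5, from 143277931 to 143435512. Alpha and beta share 2181 coding bases up to position 143282568. Alpha then continues at 143282041 with 150 coding bases, and beta at 143279411 with 45. In lower case are the last 18 shared bases and in capitals the first 45 that differ. Gamma carries 3 extra bases after position 143314002, in capitals, where alpha joins its exons directly. The sequences were read from the GENCODE 29 transcripts.
NR3C1 alpha end: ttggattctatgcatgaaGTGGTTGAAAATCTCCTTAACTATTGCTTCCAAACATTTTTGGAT
NR3C1 beta end: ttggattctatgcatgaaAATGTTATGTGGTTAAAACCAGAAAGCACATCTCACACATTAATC
NR3C1 alpha junction: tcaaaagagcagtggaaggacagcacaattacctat
NR3C1 gamma junction: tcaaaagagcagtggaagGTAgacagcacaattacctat

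By likeness to NR3C1 in both log2 ratios, over 3 group means and 11669 genes whose mean count reached 50 in each group, the nearest genes were HYPK, GLI2 and UGGT1. HYPK was at -0.15 in GAS5 and -0.33 in siYAP, GLI2 at -0.15 and -0.32, and UGGT1 at -0.16 and -0.33. As many as 408 genes lay within a distance of 0.1 of NR3C1, so such likeness is common among these genes.

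The coactivator genes were near NC in their sums. NCOA1, also called SRC-1, had 1004.5 mean counts for NC, 821.5 for GAS5 and 827.0 for siYAP, a log2 ratio of -0.17 in GAS5 (interval -0.30 to -0.04) and -0.19 in siYAP (interval -0.33 to -0.06). NCOA2, also called GRIP1, had 1693.5, 1485.5 and 1382.5 mean counts. Its log2 ratio was -0.07 in GAS5 (interval -0.17 to 0.03) and -0.21 in siYAP (interval -0.31 to -0.10).

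The transcript estimates of NCOA2 differed between groups far more than its sum. The share of all transcripts past 2-fold was not computed, so how common such differences are cannot be said for any member. ENST00000452400, which codes for the full protein of 1464 residues, had 752.7 mean counts for NC, 1239.1 for GAS5 and 897.2 for siYAP, a log2 ratio of 0.84 in GAS5 and 0.34 in siYAP. The assembled transcripts together had 810.3, 151.8 and 394.0. Among them, TCONS_00137383 had 354.4 mean counts in NC and was listed at 0 in both treatments. TCONS_00137387 had 268.4, 42.3 and 132.8 mean counts, and TCONS_00137386 had 77.9, 24.6 and 128.2. Over the NCOA2 transcripts with an Ensembl identifier the log2 ratio was 0.71 in GAS5 and 0.25 in siYAP, against -0.07 and -0.21 for all transcripts. The assembled share of NCOA2 was 47.8% for NC, 10.2% for GAS5 and 28.5% for siYAP.

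NCOA1 had a smaller assembled share, 7.67% of its counts in NC. Its most abundant transcript, ENST00000288599 of 1399 residues, had 347.2 mean counts for NC, 182.7 for GAS5 and 397.1 for siYAP, a log2 ratio of -0.80 and 0.28. ENST00000407230, of 1248 residues, had 256.2, 240.0 and 135.5, a ratio of 0.02 and -0.82. These transcripts were lower in different groups. ENST00000395856 (1440 residues) and ENST00000405141 (1399 residues) were past 2-fold in GAS5, at 1.44 and 1.17. The assembled TCONS_00077448 was past 2-fold in siYAP, from 77.1 to 17.9 mean counts.

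**Figure D3:**
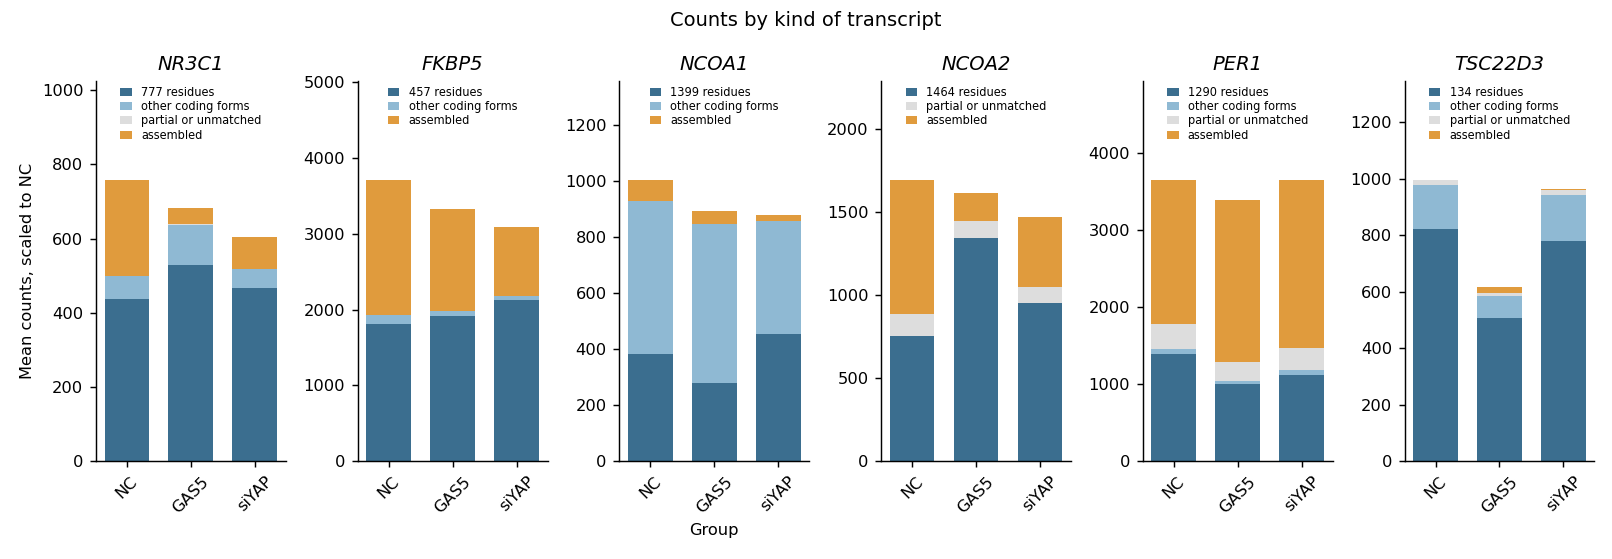
Mean counts scaled to NC for 6 members by group, stacked by kind of transcript: the coding form with most counts, other coding forms, partial or unmatched Ensembl transcripts, and transcripts assembled from the reads. The assembled part is largest in NC for NR3C1 (260.9), FKBP5 (1781.2), NCOA1 (77.1) and NCOA2 (810.3), and smallest in NC for PER1 (1864.8), while TSC22D3 has almost none and its main coding form is lower in GAS5.

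Assembled transcripts held 11.2% of all mean counts for NC, 11.3% for GAS5 and 11.5% for siYAP, so their share over all genes was alike. KLF9, SGK1 and TSC22D3 kept their direction with Ensembl transcripts alone, KLF9 and SGK1 because they have no assembled transcript. NCOA1 and PER1 kept their sign too. Rescaled on these transcripts, NCOA1 was at -0.14 in GAS5 and -0.12 in siYAP, and PER1 at -0.49 and -0.29. For NR3C1, FKBP5 and NCOA2 the sign of the ratio in both comparisons differed between all transcripts and Ensembl transcripts.

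**Figure D4:**
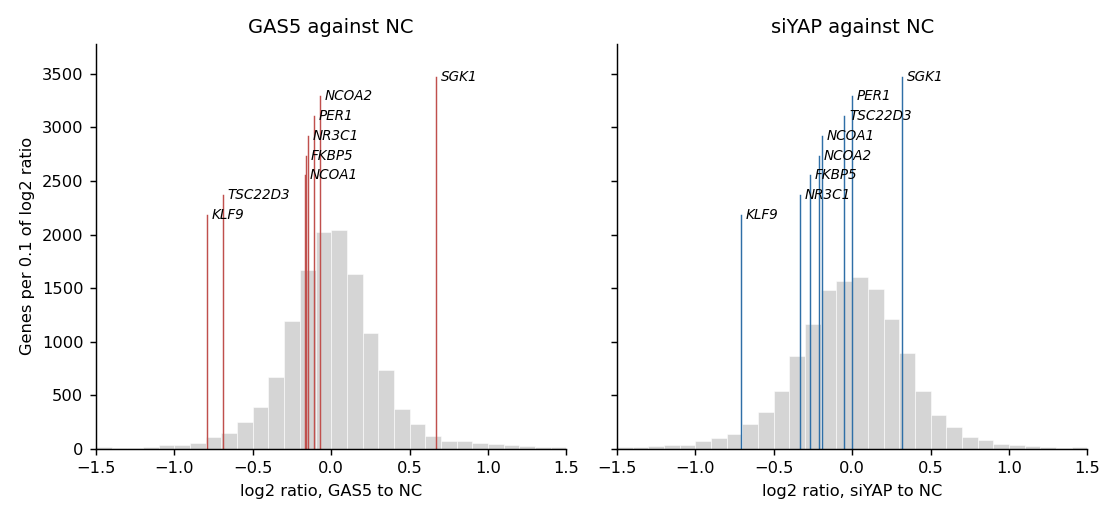
Number of genes per 0.1 of log2 ratio to NC between -1.5 and 1.5 in GAS5 (left) and siYAP (right), with a line at each member that passed the filter. In GAS5, KLF9, TSC22D3 and SGK1 stand in the flanks and the other members near the centre; in siYAP, KLF9 (-0.71) is farthest from 0.

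The partners of the receptor were described by fixed lists, which include members where they belong. Of the 14 chaperones and immunophilins, 13 were above 0 in GAS5 and 1, FKBP5, was below, with a median log2 ratio of 0.25. In siYAP, 4 were above 0 and 10 below, with a median of -0.09. Of all genes, 6712 of 13379 were above 0 in GAS5 and 6650 of 13308 in siYAP. HSPA8, a constitutive HSP70 chaperone, had 36543.5 mean counts for NC, 56192.0 for GAS5 and 23023.0 for siYAP, a log2 ratio of 0.74 and -0.58. HSP90AA1, an HSP90 that holds the receptor ready to bind hormone, was at 0.29 in GAS5 and -0.46 in siYAP. FKBP4, which competes with FKBP5 for the complex, was at 0.31 and -0.05, and DNAJB1, an HSP40, at 0.33 and -0.06. HSPA8 and HSP90AA1 have processed pseudogenes, so their counts may hold shared reads. FKBP5 and FKBP4 lay on opposite sides of NC in GAS5, although the Ensembl transcripts of FKBP5 were at 0.04.

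Of 14 coactivators, 13 passed the filter, and in GAS5 5 were above 0 and 8 below, with a median of -0.09. In siYAP, 4 were above 0 and 9 below, with a median of -0.17. MED1, the Mediator subunit that contacts nuclear receptors, had 3330.5 mean counts for NC, 3078.5 for GAS5 and 1965.0 for siYAP, a log2 ratio of 0.00 and -0.68. NCOA3 was at -0.24 and 0.02, NCOA6 at -0.21 and -0.26, and the acetyltransferase gene EP300 at 0.24 and 0.04. MED14, another Mediator subunit, was at -0.16 and -0.23. The list, with NCOA1 and NCOA2 in it, ran from -0.24 to 0.24 in GAS5 and from -0.68 to 0.06 in siYAP.

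Among 9 corepressors and receptor modifiers, 5 were below 0 in GAS5 and 6 in siYAP, with medians of -0.04 and -0.10. NRIP1, a corepressor of ligand-bound receptors that is induced by several of them, had 935.0 mean counts for NC, 748.0 for GAS5 and 495.5 for siYAP, a log2 ratio of -0.20 and -0.83. TBL1XR1, a part of a corepressor complex, was at -0.46 and -0.09. NCOR1 was at 0.07 and -0.31, SIN3A at -0.04 and -0.35, and GMEB1, a factor that modulates the response to glucocorticoid, at 0.23 and 0.10. In this list NRIP1 in siYAP was the 1 value of at least 0.5 in size. In siYAP 7.91% of all genes were lower by at least 0.5, so 1 of 9 is near that share.

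NR3C2, the gene of the mineralocorticoid receptor, which reads the same DNA element, had 99.5 mean counts for NC, 95 for GAS5 and 76.0 for siYAP, a log2 ratio of 0.05 (interval -0.35 to 0.46) and -0.30 (interval -0.73 to 0.13). At 0.82 FPKM in NC it was well below NR3C1 at 5.12 FPKM. Of 11 genes of steroid activation, synthesis and export, 5 passed the filter, with medians of -0.23 in GAS5 and 0.13 in siYAP. H6PD, which feeds the reductase that activates cortisone, was at -0.39 and 0.31. The gene of that reductase, HSD11B1, named after its values were seen, did not pass the filter. It had 1.5 mean counts for NC, 0.0 for GAS5 and 1.0 for siYAP. HSD11B2, also named after its values were seen, passed the filter. It had 169.5 mean counts for NC, 169.5 for GAS5 and 175.0 for siYAP, a log2 ratio of 0.12 and 0.13. SRD5A1, a steroid 5-alpha reductase, was at -0.24 and 0.14, ABCB1, an exporter of steroids, at -0.23 and -0.36, and NR5A2, a regulator of intestinal steroid synthesis, at 0.49 and -0.03. The intervals of NR5A2, from -0.05 to 1.06 in GAS5 and from -0.63 to 0.57 in siYAP, include 0. So do those of ABCB1, from -0.60 to 0.14 in GAS5 and from -0.74 to 0.01 in siYAP.

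Other induced targets of the receptor did not share a direction in GAS5. Of 32 such genes 28 passed the filter, with 14 above 0 and 14 below and a median log2 ratio of -0.00. At least 0.5 in size, 2 of the 28 were higher, beside 6.32% of all genes, and 1 was lower, beside 5.31%, so these counts are near the share over all genes. DDIT4, an inhibitor of mTORC1 signalling, was the lower one, with 7264.0 mean counts for NC, 4027.0 for GAS5 and 6225.0 for siYAP, a log2 ratio of -0.73 and -0.14. Its ratios lay near those of TSC22D3, which was at -0.69 and -0.05. This likeness was picked after the values were seen, and how many genes share it was not counted.

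The higher ones in GAS5 were DUSP1 and CEBPD. DUSP1, a phosphatase of MAP kinases, had 250.5 mean counts for NC, 437.5 for GAS5 and 313.0 for siYAP, a log2 ratio of 0.92 and 0.40. CEBPD, a transcription factor, had 71.5, 95.5 and 119.0, a ratio of 0.52 and 0.80. BIRC3, an inhibitor of apoptosis, had 180.5 mean counts for NC, 231.0 for GAS5 and 140.5 for siYAP, a ratio of 0.47 (interval 0.19 to 0.75) in GAS5 and -0.27 (interval -0.59 to 0.04) in siYAP. BIRC3 was above NC in GAS5, on the other side of NC from TSC22D3.

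In siYAP, 18 of the 28 induced targets were above 0 and 10 below, with a median of 0.11, and 3 were higher by at least 0.5, beside 6.82% of all genes, which is again near that share. Besides CEBPD these were CDKN1C, a cell cycle inhibitor, at 0.73 and MT1X, a metallothionein, at 0.62, while in GAS5 the pair were at 0.01 and -0.02. The targets that liver cells use to make glucose or degrade amino acids had almost no reads. PCK1 was at 0.5, 0.5 and 0.0 mean counts in NC, GAS5 and siYAP, G6PC at 0.0, 1.0 and 0.0, and TAT at 5.0, 5.0 and 6.5.

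Of 12 genes that the receptor represses through NF-kappa B and AP-1, 6 passed the filter, 4 of them above 0 in GAS5 and 5 in siYAP, with medians of 0.29 and 0.27. CXCL8, a chemokine for neutrophils, had 57.5 mean counts for NC, 366.5 for GAS5 and 126.5 for siYAP, a log2 ratio of 2.75 (interval 2.39 to 3.19) and 1.19 (interval 0.78 to 1.67). CXCL1 was at 0.81 and 0.32, and ICAM1 at -0.07 and 0.12. PTGS2, which makes prostaglandins, was lower, with 58.0, 38.5 and 27.5 mean counts and a ratio of -0.45 (interval -1.06 to 0.11) and -0.94 (interval -1.64 to -0.34). Repressed genes lay on both sides of NC in each comparison.

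**Figure D5:**
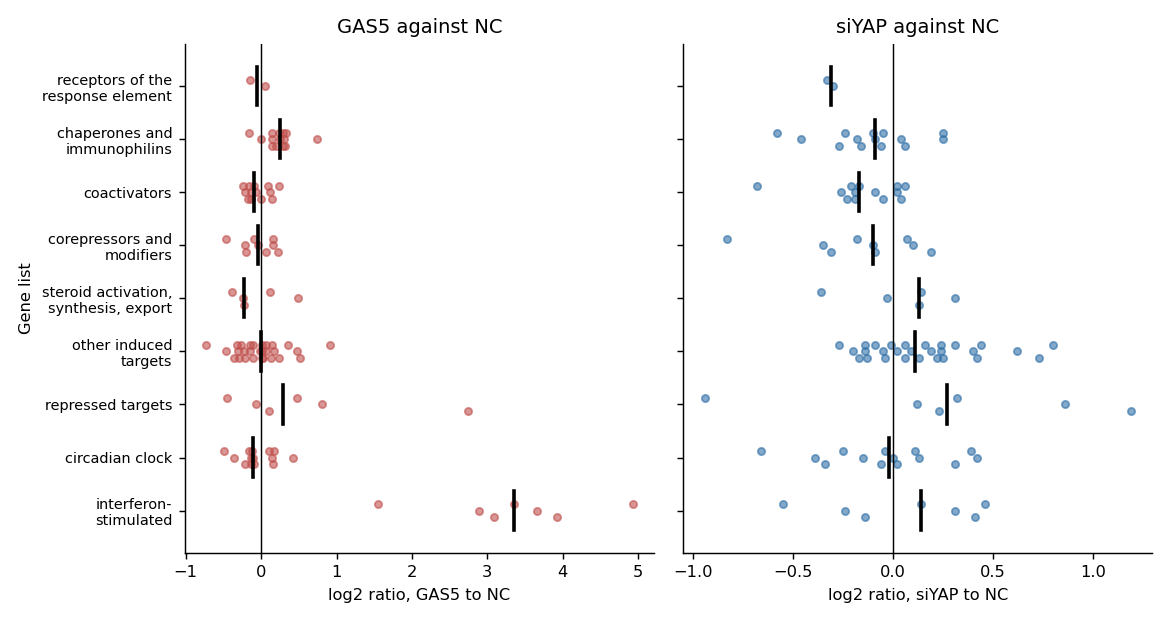
Log2 ratio to NC of the genes that passed the filter in 9 lists, in GAS5 (left) and siYAP (right), 1 point per gene with a black bar at the list's median; the horizontal axes differ in range. The chaperones lie mostly above 0 in GAS5 (median 0.25), the other induced targets lie on both sides (median -0.00), and the interferon-stimulated genes lie far to the right in GAS5 (median 3.36).

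Relatives of the members were listed because near-identical stretches can share reads, and how the authors' counting treated such reads is not given in the sources used here. Of 11 paralogs, 5 were above 0 in GAS5 and 6 in siYAP, with medians of -0.06 and 0.02. TSC22D1 was at -0.38 in GAS5 and 0.35 in siYAP, and TSC22D4 at -0.06 and 0.58, beside -0.69 and -0.05 for TSC22D3. KLF13 was at -0.34 and 0.37, beside -0.79 and -0.71 for KLF9. In siYAP KLF13 and KLF9 lay on opposite sides of NC.

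The circadian clock list, to which PER1 belongs, had 14 of 15 genes past the filter, with 5 above 0 in GAS5 and 6 in siYAP and medians of -0.11 and -0.02. DBP, an output of the clock, had 769.0 mean counts for NC, 503.0 for GAS5 and 572.5 for siYAP, a log2 ratio of -0.49 and -0.34. NR1D2, a repressor of the clock, was at -0.36 and -0.66. Both were lower than NC in each group. CRY1 and CRY2, partners of PER1, were at -0.12 and 0.17 in GAS5 and at 0.42 and 0.39 in siYAP. BHLHE41, another repressor, was at 0.42 and -0.15. PER1 at -0.11 and -0.00 lay near the median of its list in both comparisons.

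The short list of YAP1 and 4 of its targets had 4 of 5 genes above 0 in GAS5, with a median of 0.72, and 3 of the 4 that passed the filter were above 0 in siYAP, with a median of 0.22. CYR61 was at 1.09 and 0.29, CTGF at 0.72 and 0.16, and AMOTL2 at 0.43 and 0.54.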

How the data were processed

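RNA of HCT116 cells was sequenced in 6 libraries, 2 for each of NC, GAS5 and siYAP, and the submitters' processing notes name TopHat2 2.1.1. The counting tool and genome build are not given in the sources used here. The deposited tables, 1 per treatment with the same NC columns, list 92866 mRNA transcripts, of which 12002 were assembled from the reads. The deposited columns of expected counts (estimated, not whole numbers) give the authors' group means. Of 39609 gene sums of at least 10, 90.4% were a multiple of 0.5 within 0.05, as a mean of 2 libraries gives. The deposited FPKM are group means too, in which 0 is written as 0.001. The authors' log2 fold change, the p-value and the FDR deposited beside them describe each transcript in their own comparison, and were not used.

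Mean counts and FPKM were summed by symbol, read in upper case. Transcripts without a symbol (339, at most 0.224% of counts) were left out. Scaling used TMM (edgeR 4.0.16, R 4.3.3) on each pair of means, with factors of 1.085 for GAS5 and 1.061 for siYAP to NC, and genes were kept by filterByExpr with a minimum count of 10. Log2 ratios used a prior count of 2, and intervals were computed in Python 3.11.15 (scipy 1.17.1, numpy 2.4.6, pandas 2.3.3). Size factors of DESeq2 1.42.0 were an alternative, as were other filters, prior counts, FPKM and subsets of transcripts. The scaling and the log2 ratio were tested on simulated gene counts with counting error only. The intervals and the transcript values were not tested in this way. No test across genes was run, since only group means were at hand.

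The members and all lists were chosen with earlier results of these data known. Genes were named by rule: the 9 members, from each list the 3 with the largest difference per comparison among those with at least 50 mean counts in NC or the treatment, the 2 main transcripts of each member and any past 2-fold with at least 50 mean counts, the 3 genes most like NR3C1, and BIRC3, PCK1, G6PC, TAT and YAP1. Genes named by the rule in 1 comparison are given in both, and marker genes at 0 are named for that value. Some genes that the rule names are not reported here.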

Additional observations from a re-analysis of the deposited data

How the results depend on the processing

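No paired analysis was possible because only group means were at hand. The edgeR and DESeq2 tests, the replicate block and leaving out each replicate were not run for that reason. Intervals cover counting error only, so depth limits low genes such as ZBTB16, and the spread between cultures is unknown for every value. Taking a mean of 2 libraries as the count makes the intervals wider than ones from all reads. The numbers within and outside the interval given next rest on these wider ones.

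Of 128 log2 ratios of members under alternatives, 107 stayed within the counting interval, 12 took the other sign where the reported interval excludes 0, and 9 moved out of the interval otherwise. Among the 9, NCOA2 in GAS5 and PER1 in siYAP, whose reported intervals include 0, also took the other sign in values given below. DESeq2 size factors, total count scaling, TMM on all 3 means, no low-count filter and a prior count of 0.5 moved none of their 16 values each out of it. With at least 50 mean counts in both groups no ratio of a member is recomputed. From FPKM, PER1 was at -0.28 in GAS5 and -0.13 in siYAP.

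With Ensembl transcripts only, rescaled on these, the GAS5 ratios were 0.35 for NR3C1, 0.03 for FKBP5, 0.70 for NCOA2 and -0.49 for PER1. The siYAP ratios were 0.05 for NR3C1, 0.17 for FKBP5, 0.24 for NCOA2 and -0.29 for PER1. With the most abundant transcript only, the GAS5 ratios were 0.36 for NR3C1, 0.09 for FKBP5, 0.17 for PER1, 0.22 for SGK1, -0.80 for NCOA1 and 0.84 for NCOA2. The siYAP ratios were then 0.16 for NR3C1, 0.26 for FKBP5, 0.22 for PER1, 0.28 for NCOA1 and 0.34 for NCOA2. These settings leave out transcripts by construction, and why counts sit in assembled transcripts was not tested.

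Of all genes, 414 were past 2-fold in GAS5 and 303 in siYAP. Without the low-count filter the numbers were 959 and 749, with at least 50 mean counts in both groups 96 and 76, and with Ensembl transcripts only 576 and 520.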
